A study of Arabidopsis thaliana with 12 samples.

Results

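The proteasome is the protease that degrades proteins marked with ubiquitin chains. Its genes were described here in dry and in cold-treated seeds of Arabidopsis thaliana. The members were the 57 loci, of 32833 in the deposited table, whose description contained the word proteasome. By a list of subunits, 24 of them encode the 20S core, 13 alpha and 11 beta subunits, and 23 encode the 19S regulatory particle, 7 ATPases and 16 non-ATPase subunits. The other 10 were 4 annotated as assembly or maturation factors, 2 as inhibitor-like proteins and 4 as relatives of 19S subunits or putative regulatory subunits. The list held 9 further 19S genes whose description lacks the word, RPT1A, RPT2A, RPT2B, RPT3, RPN10, RPN12A, RPN13 and both DSS1 genes, and these are given separately.

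The core is a barrel of stacked rings, with outer rings of alpha subunits and inner rings of beta subunits, some of which carry the cutting sites. The regulatory particle caps the barrel, where its RPN subunits bind and remove ubiquitin and its ring of RPT ATPases unfolds the substrate. In Arabidopsis most subunits are encoded by a pair of paralogs. Protein turnover by this route bears on seed germination, since repressors of gibberellin responses and regulators of abscisic acid responses are among its known substrates.

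Messenger RNA was sequenced from Col-0 seeds, either wild type or labelled atalkbh1a/1b, a name that refers to AtALKBH1A and AtALKBH1B, which the series title calls DNA adenine demethylases. Each genotype was sampled dry, at 0 days, and after stratification, 2 days in water at 4 °C, a cold treatment that promotes germination, with 3 libraries in each of the 4 groups. The sources used here do not give how the mutant line was made or which alleles it carries, and no group was kept in water without cold. Whether replicates were separate seed lots is not labelled, so p-values measure only how these samples vary, possibly for technical reasons.

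Values were RPKM, read counts scaled by transcript length and library size, so levels of different genes can be compared per length. Depth, recovered from the steps between low values, was 17752900 to 22987700 reads a library. The share of ribosomal RNA was 15.4% in wild-type stratified library 3, 10.8% in mutant-labelled dry library 2, and 15.1% and 29.3% in mutant-labelled stratified libraries 1 and 3, against 3.05% to 5.91% in the others. AT5G01780, a gene of the ALKBH family, stood at 4.22 to 6.69 RPKM in the 6 wild-type libraries and 0.178 to 0.499 in the 6 mutant-labelled ones. AT1G11780, another gene of that family, stood at 4.44 to 15.04 and 4.41 to 13.03 RPKM, so its level did not check the label. The summed level of 6 mature seed markers, all detected, was 73099 to 99316 RPKM in dry libraries and 8943 to 40083 in stratified ones, highest among these in wild-type stratified library 3. The sum of 5 photosynthetic markers was 10.5 to 22.1 RPKM in dry and 48.7 to 386 in stratified libraries. Of 3 endosperm markers 2 were above 0, and their sum was 1681 to 2744 RPKM in dry and 334 to 1282 in stratified libraries. The 2 went opposite ways. EPR1 had at least 74186 reads in every dry and at most 67697 in every stratified library. MAN7 had 26 to 73 reads in dry and 262 to 1367 in stratified libraries. The part of these shifts, and of ribosomal RNA, in the results was not tested. In whole seeds, fewer cells of a type and less RNA per cell cannot be told apart.

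Most proteasome genes rose after stratification, and every core gene did. In wild-type seeds 44 of the 57 members were higher and 2 were lower, 8 did not pass and 3 were too low to test (limma adjusted p under 0.05 over all 15145 genes tested). Over all genes tested 49.8% were higher and 18.9% lower. The median change of the 54 tested members was 1.42 on the log2(RPKM + 1) scale, against 0.64 for all genes. In mutant-labelled seeds 49 members were higher and 1 was lower, where 43.4% of all genes were higher and 15.2% lower, and the median was 1.61 against 0.50. All 24 core genes were called higher in both genotypes, with a median change of 1.84 in wild-type and 1.89 in mutant-labelled seeds. PAC2, with no reads in dry seeds, could be tested only because it was higher after stratification, and without it the counts were 23 of 23 core genes in each genotype, with medians of 1.92 and 1.92, and 43 and 48 higher members. Of the 23 members of the 19S particle, 22 of them tested, 16 were higher and 1 lower in wild-type seeds, and 21 higher and 1 lower in mutant-labelled seeds. Their medians were 1.096 and 1.44.

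The median of all genes was itself above 0, and other scalings moved it to between -0.026 and 0.064 over both genotypes. Under TMM-style scaling 32 members were higher and 5 lower in wild-type seeds, the core with 18 higher and 0 lower, where 38.4% of all genes were higher and 39.6% lower. The 19S members then counted 10 higher and 2 lower, and the median of the 7 ATPases turned to -0.25. In mutant-labelled seeds 45 were higher and 4 lower under that scaling, where 36.9% of all genes were higher and 34.97% lower. In wild-type seeds 18 of the 24 core calls and 10 of the 16 calls of higher 19S members held under every alternative that was run, and 23 of 24 and 18 of 21 in mutant-labelled seeds.

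**Figure D1:**
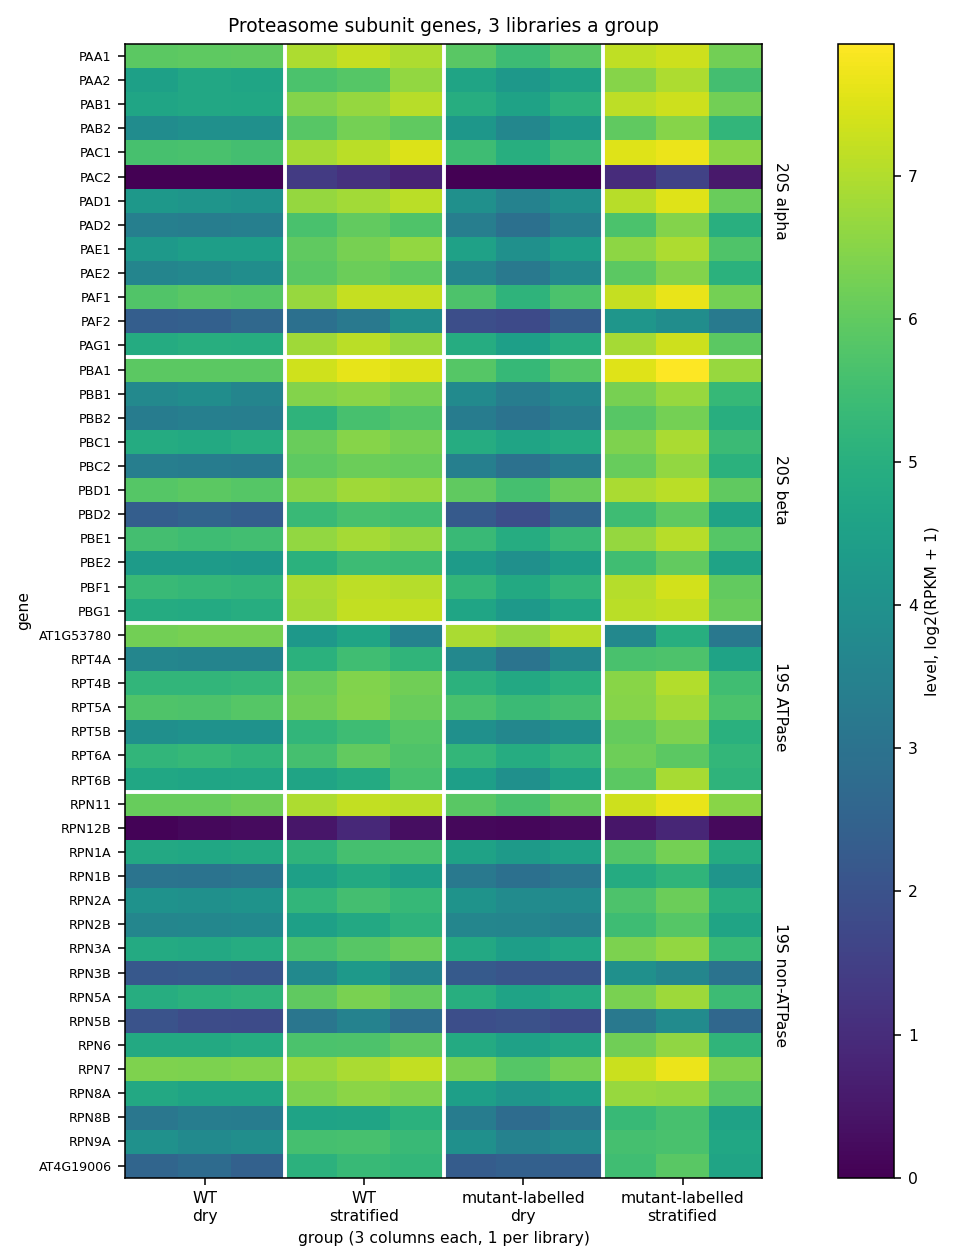
Levels of the 47 core and 19S members in each library, as log2(RPKM + 1), with genes in rows by class and the 3 libraries of each group in adjacent columns. Lighter colours are higher levels, core rows are lighter in stratified than in dry columns, AT1G53780 is darker there, and the last column, mutant-labelled stratified library 3, is the lowest stratified column in most rows.

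The summed level of the 24 core genes was 625, 640.1 and 631 RPKM in wild-type dry libraries 1, 2 and 3 and 1831, 2234 and 2235 in the stratified ones. In mutant-labelled seeds it was 618, 448 and 625 RPKM dry and 2282, 2942 and 1194 stratified. Every stratified library lay above every dry one, and the mutant-labelled stratified libraries spread the widest. Library 2 of that group held the highest value of all 12 libraries for 42 of the 56 members with any reads. Library 3, with the largest share of ribosomal RNA, held the lowest value among stratified libraries for 51 of them. Such counts were not made over all genes, so they do not show a trait of the members. The median change of all genes in mutant-labelled seeds moved too, from 0.50 to 0.33 without library 2 and to 0.73 without library 3.

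The core rose more than the regulatory particle in summed level. The summed level of the 24 core genes divided by that of the 23 members of the 19S particle, a ratio within a library that scaling does not touch, was 1.03, 1.06 and 1.00 in wild-type dry libraries 1, 2 and 3. It was 1.82, 1.85 and 1.90 in the stratified ones. In mutant-labelled seeds the ratio was 0.991, 0.900 and 1.01 dry and 1.61, 1.62 and 1.57 stratified. Dry and stratified libraries did not overlap in either genotype, and the wild-type stratified libraries all lay above the mutant-labelled stratified ones. No test of this ratio was made, since the members were chosen with earlier results of these data known. Within a genotype an exact permutation test of 3 against 3 libraries cannot go below a p of 0.1. With all 19S genes of the list in the sum, the ratio was 0.554 to 0.602 in dry, 1.03 to 1.13 in wild-type stratified and 0.878 to 0.932 in mutant-labelled stratified libraries, the same order. Without AT1G53780 the log2 change of the ratio was 0.68 in wild-type and 0.42 in mutant-labelled seeds, against 0.85 and 0.73 with it.

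The core subunits also came closer to each other in level. With paralogs summed, the 14 core subunits differed 3.68 to 4.21-fold between the highest and the lowest in the 6 dry libraries, and 1.48 to 2.17-fold in the 6 stratified ones. Their coefficient of variation was 40.2% to 41.9% in dry and 13.5% to 21.2% in stratified libraries. In wild-type dry seeds PBB was the lowest at 21.8 ± 1.59 RPKM (SD, n = 3) and PAA the highest at 85.3 ± 2.90. After stratification they stood at 132 ± 10.3 and 199 ± 25.2 RPKM. PAD, the second lowest in dry seeds, rose 6.57-fold and PBB 6.04-fold, while PBE, the second highest, rose 2.24-fold and PAA 2.33-fold. In mutant-labelled seeds the fold ranged from 2.36 for PBD to 8.44 for PAD. For the 19 subunits of the regulatory particle the coefficient of variation was 62.7% to 78.5% in dry and 33.3% to 43.7% in stratified libraries.

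**Figure D2:**
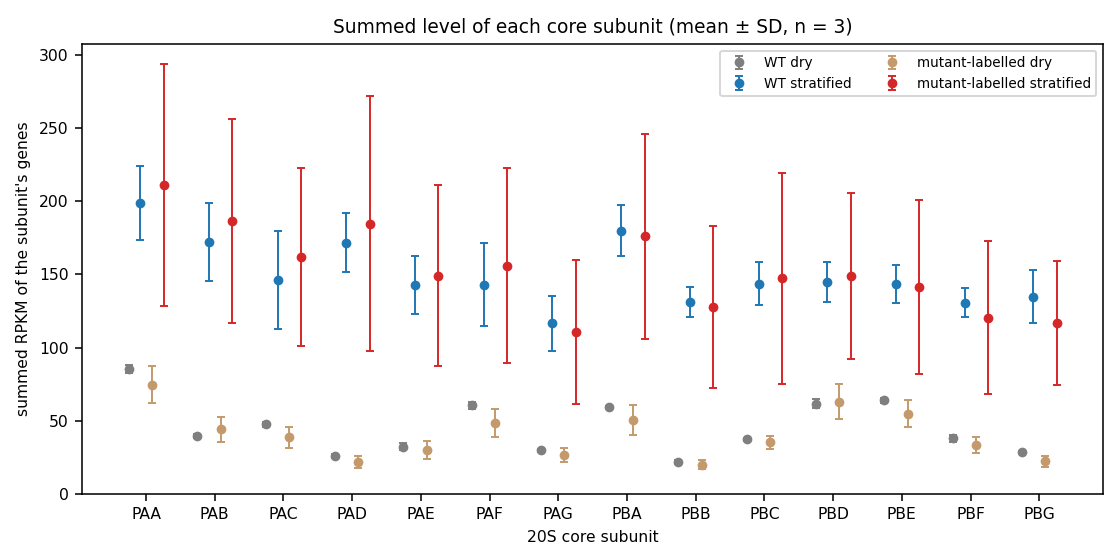
Summed RPKM of the genes of each of the 14 core subunits, as the mean and SD of 3 libraries a group. Dry means lie between 20.01 and 85.3 RPKM and stratified means between 111 and 211, and the stratified means differ less from each other in relative terms.

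Of the beta subunits with a cutting site, PBA1, the caspase-like one, stood at 59.6, 59.5 and 59.8 RPKM in wild-type dry libraries 1, 2 and 3 and 162, 197 and 181 in the stratified ones. In mutant-labelled seeds PBA1 stood at 55.8, 38.8 and 56.5 dry and 184, 242 and 102 stratified. The groups did not overlap, and the changes were 1.57 ± 0.32 (SE) and 1.72 ± 0.32 (limma adjusted p = 0.000311 and 0.000216). PBB1, one of the 2 genes of the trypsin-like subunit, stood at 12.2, 13.7 and 11.1 RPKM dry and 86.0, 92.9 and 77.9 stratified in the wild type. Its mutant-labelled values were 12.9, 9.23 and 12.1 dry and 78.2, 103.9 and 38.7 stratified. All stratified values lay above all dry ones, with changes of 2.70 ± 0.31 and 2.49 ± 0.31 (limma adjusted p = 9.31e-07 and 4.44e-06). Its paralog PBB2 stood at 8.95, 9.82 and 9.44 RPKM dry and 34.6, 48.1 and 55.1 stratified in the wild type, and at 9.13, 7.11 and 9.58 and then 57.1, 75.5 and 30.3 in mutant-labelled seeds. PBB2 also showed no overlap, with changes of 2.15 ± 0.31 and 2.44 ± 0.31 (limma adjusted p = 9.49e-06 and 4.54e-06).

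The chymotrypsin-like subunit moved less. PBE1 stood at 46.4, 42.9 and 45.6 RPKM in wild-type dry and 98.8, 115 and 100.3 in stratified libraries, and at 40.7, 29.2 and 40.2 and then 101.5, 135 and 56.5 in mutant-labelled ones. Its changes were 1.20 ± 0.31 and 1.32 ± 0.31 (limma adjusted p = 0.00226 and 0.00152). PBE2 stood at 19.5, 19.2 and 18.4 RPKM and then 32.3, 41.9 and 41.2 in the wild type, and at 19.2, 14.8 and 20.3 and then 44.3, 64.1 and 23.3 in mutant-labelled seeds. Stratified values of both genes lay above the dry ones of the same genotype, and PBE2 changed by 0.97 ± 0.31 and 1.13 ± 0.31 (limma adjusted p = 0.0107 and 0.00483), the wild-type call being lost under at least 1 alternative.

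Among alpha subunits PAG1, the single gene of its ring position, stood at 28.5, 30.6 and 29.97 RPKM dry and 110.2, 138 and 102 stratified in the wild type. In mutant-labelled seeds PAG1 stood at 29.3, 21.1 and 29.3 RPKM dry and 114, 158 and 59.6 stratified. Its changes were 1.93 ± 0.32 and 1.92 ± 0.32 (limma adjusted p = 4.82e-05 and 8.07e-05), with no overlap. PAC2 had 0 reads in all 6 dry libraries and 9 to 39 in the stratified ones, and was the 1 member that passed the filter on low values through stratified libraries alone. Its mean was at least 6.58-fold higher in wild-type and at least 6.14-fold higher in mutant-labelled stratified seeds than a floor of 3 reads per dry library. With PAC2 at that bound the core medians were 1.93 and 1.95, and those of the tested members 1.45 and 1.65. PAF2 overlaps a gene on the other strand over 1652 bases, and its reads cannot be told from that gene's if the counting ignored strand, which is not stated.

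The 3 members with the largest rise in the wild type were the core genes PBD2, PBC2 and PAD1. PBD2 stood at 4.204, 4.77 and 4.15 RPKM dry and 40.6, 48.5 and 45.1 stratified, and in mutant-labelled seeds at 3.79, 2.73 and 5.19 and then 43.3, 60.8 and 23.4. PBC2 stood at 9.51, 9.04 and 8.45 RPKM and then 61.2, 70.5 and 66.4, and in mutant-labelled seeds at 9.76, 6.70 and 9.28 and then 67.3, 98.6 and 32.3. PAD1 stood at 17.8, 16.6 and 15.3 RPKM and then 101, 113 and 136, and in mutant-labelled seeds at 14.8, 10.5 and 14.5 and then 133, 186 and 67.9. None of the 3 overlapped between dry and stratified libraries. They were picked for their wild-type change, so the lack of overlap and the p-values there follow partly from that choice. PBD2 changed by 3.09 ± 0.31 and 3.08 ± 0.31, PBC2 by 2.74 ± 0.32 and 2.69 ± 0.32, and PAD1 by 2.74 ± 0.32 and 3.09 ± 0.32 (largest limma adjusted p = 2.91e-06).

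**Figure D3:**
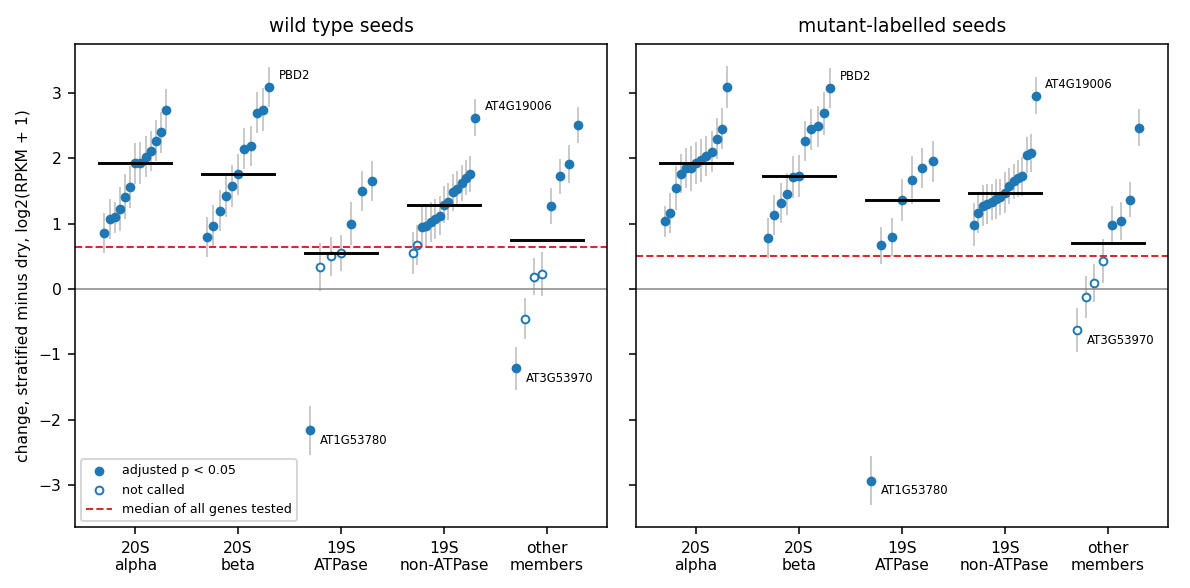
Change of each tested member after stratification on the log2(RPKM + 1) scale, with its SE, in wild-type (left) and mutant-labelled (right) seeds, by class; filled points passed limma's adjusted p of 0.05, black bars are class medians and the dashed line is the median of all genes tested. Core genes lie above 0 in both panels, and AT1G53780 lies lowest, at -2.16 and -2.93.

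The 7 ATPase members had the smallest median change of the 4 subunit classes in wild-type seeds, 0.55, below the 0.64 of all genes. Of these 7, 3 were higher, RPT4A, RPT4B and RPT5B, 1 was lower, and RPT5A, RPT6A and RPT6B did not pass. Over all genes 49.8% were higher and 18.9% lower. In mutant-labelled seeds 6 were higher and 1 was lower, with a median of 1.36, where 43.4% of all genes were higher and 15.2% lower. RPT1A, RPT2A, RPT2B and RPT3, ATPases outside the members, are not in these counts. RPT5B changed by 1.5001 ± 0.31 in wild-type seeds, and its paralog RPT5A by 0.50 ± 0.30 (limma adjusted p = 0.000395 and 0.142). RPT6A and RPT6B share 11.97% of their stretches of 50 coding bases, so reads could be split between them and their values are uncertain.

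The subunit gene that fell in both genotypes was AT1G53780, annotated as a 26S proteasome regulatory complex ATPase and paired here with RPT1A, at 89.4% identity over 1278 aligned coding bases. It lies on chromosome 1 from 20073989 to 20079022 on the minus strand, with 2 annotated genes between it and RPT1A. AT1G53780 stood at 75.1, 78.4 and 77.6 RPKM in wild-type dry libraries 1, 2 and 3 and at 17.6, 23.9 and 10.5 in the stratified ones. In mutant-labelled seeds it stood at 119.7, 102 and 132 RPKM dry and 12.1, 30.6 and 8.06 stratified. No stratified value reached a dry one, and the changes were -2.16 ± 0.38 and -2.93 ± 0.38 (limma adjusted p = 8e-05 and 6.32e-06). The dry values of the mutant-labelled libraries all lay above those of the wild type, by a log2 change of 0.60 ± 0.38 that did not pass (limma adjusted p = 1). Its nearest annotated neighbours stood at 1.32 to 3.06 RPKM, AT1G53770, and 2.56 to 8.41, AT1G53790, over all 12 libraries.

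RPT1A, which is outside the members, stood at 94.9, 92.2 and 99.97 RPKM in wild-type dry and 123, 134 and 176 in stratified libraries. In mutant-labelled seeds RPT1A stood at 77.3, 56.9 and 77.5 RPKM and then 195, 240.4 and 116. It changed by 0.57 ± 0.31 in wild-type seeds, which did not pass, and by 1.32 ± 0.31 in mutant-labelled seeds (limma adjusted p = 0.115 and 0.0017). The wild-type change turned to -0.0058, -0.24 and -0.22 under median centring, TMM-style scaling and quantile normalization. It passed in 6 other alternatives, among them with ribosomal RNA left out, at 0.64, and without the libraries over 10% ribosomal RNA, at 0.42. AT1G53780 held 44.6% ± 1.18 (SD, n = 3) of the summed RPKM of the pair in wild-type dry and 62.7% ± 1.70 in mutant-labelled dry libraries, and 5.63% to 15.2% in the 6 stratified ones. That was the largest shift of any pair compared, a log2 change of -3.58 in the ratio, which no scaling of libraries alters (exact permutation p = 0.005, adjusted p = 0.0131).

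**Figure D4:**
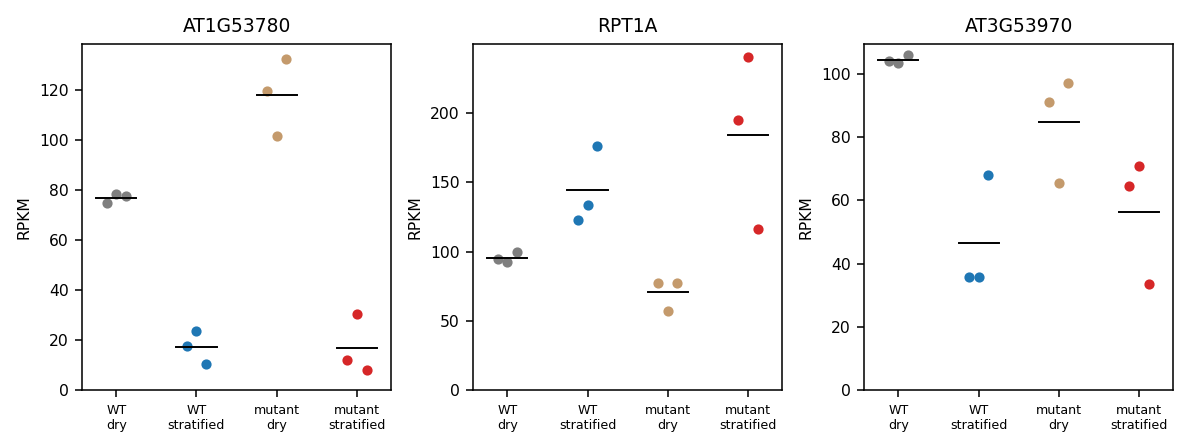
RPKM of AT1G53780, its paralog RPT1A and AT3G53970, annotated as a probable inhibitor, in each library, with points for libraries and bars for group means. AT1G53780 lies between 75.1 and 132 RPKM in dry and between 8.06 and 30.6 in stratified libraries, while RPT1A lies between 56.9 and 99.97 and then between 116 and 240.4.

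Non-ATPase subunits of the particle rose with smaller changes than the core. In wild-type seeds 13 of the 15 tested were higher, with a median of 1.29, and RPN7 and RPN1A did not pass, at 0.55 ± 0.33 and 0.67 ± 0.31 (limma adjusted p = 0.141 and 0.0619). In mutant-labelled seeds 15 of 15 were higher, with a median of 1.47. Over all genes tested 49.8% were higher in wild-type and 43.4% in mutant-labelled seeds. RPN11, the enzyme that cuts ubiquitin from the substrate, stood at 66.7, 66.2 and 72.7 RPKM dry and 122, 145 and 136 stratified in the wild type, and at 58.9, 49.4 and 65.4 and then 159, 202 and 90.5 in mutant-labelled seeds. It did not overlap and changed by 0.96 ± 0.31 and 1.299 ± 0.31 (limma adjusted p = 0.0103 and 0.00164). The wild-type call was lost under TMM-style scaling, at 0.15, and quantile normalization, at 0.24. RPN12B had 1 to 3 reads in dry and 3 to 18 in stratified libraries and was not tested.

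Of the 9 19S genes outside the members 5 were higher in wild-type and 8 in mutant-labelled seeds, and 0 were lower, beside the 49.8% and 43.4% of all genes that were higher. Under TMM-style scaling 2 were higher and 1 lower in the wild type, where 38.4% of all genes were higher and 39.6% lower. RPN10, a ubiquitin receptor, stood at 84.2, 89.0 and 95.03 RPKM dry and 79.4, 92.0 and 138 stratified in the wild type, where the groups overlapped, at 0.16 ± 0.33 (limma adjusted p = 0.674). That value was -0.063 without wild-type stratified library 3 and -0.64 under TMM-style scaling. In mutant-labelled seeds RPN10 stood at 78.7, 57.6 and 75.5 and then 154, 161 and 72.7 RPKM, again with overlap, at 0.79 ± 0.33 (limma adjusted p = 0.0493), a call lost with 1 library left out. RPT3, an ATPase, stood at 77.3, 73.9 and 75.5 RPKM and then 80.3, 101 and 129 in the wild type and at 68.6, 55.2 and 68.1 and then 170, 280.3 and 90.1 in mutant-labelled seeds. It changed by 0.42 ± 0.35 and 1.34 ± 0.35 (limma adjusted p = 0.297 and 0.00365). The wild-type value turned to -0.15, -0.39 and -0.28 under median centring, TMM-style scaling and quantile normalization.

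Within several paralog pairs, the ratio of the genes changed after stratification. The ratio of the paralogs was compared in the 21 pairs in which both averaged at least 1 RPKM, 18 with both genes among the members, by an exact permutation test within genotypes with 400 assignments, whose smallest p is 0.005. After adjustment over the 21 pairs 12 ratios had changed, in 10 toward the gene that was minor in dry seeds and in 2, PAD and PBE, away from it. In the RPT1 pair RPT1A was counted as minor from the mean of all dry libraries, although AT1G53780 was the minor gene in wild-type dry libraries and the major one in mutant-labelled ones. The minor gene was named from the same dry values that enter the ratio change, which by itself favours a gain. Among core pairs 4 moved toward the minor gene and 2 away from it. Paralogs outside the proteasome were not compared. PBD2 held 5.43% to 7.35% of the summed level of its pair in dry libraries and 26.6% to 31.1% in stratified ones. PBC2 went from between 22.2% and 25.3% to between 43.9% and 47.4%. AT4G19006, a PCI domain protein paired with RPN9A at 88.1% identity, went from between 21.1% and 31.2% to between 41.6% and 54.4%. Dry and stratified libraries did not overlap in these 3 pairs (exact permutation p = 0.005, adjusted p = 0.0131 for each).

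The other genes of these pairs rose too. PBD1 stood at 55.7, 60.2 and 56.2 RPKM dry and 90.0, 109.7 and 101 stratified in the wild type, and at 61.9, 47.5 and 68.1 and then 119, 137 and 63.0 in mutant-labelled seeds, where the groups overlapped. Its changes, 0.79 ± 0.31 and 0.78 ± 0.31, were the smallest of the core (limma adjusted p = 0.029 and 0.037), and that of the wild type turned to -0.016 under TMM-style scaling. Neither call of PBD1 was stable: that of the wild type was lost without dry library 1, 2 or 3 or stratified library 2 of that genotype, and that of mutant-labelled seeds in 8 of the 12 runs with 1 library left out. PBC1 stood at 28.0, 27.3 and 29.5 RPKM and then 67.8, 88.0 and 77.1 in the wild type and at 28.8, 23.5 and 27.7 and then 83.3, 119 and 41.3 in mutant-labelled seeds. No stratified value of PBC1 reached down to a dry one. RPN9A stood at 15.1, 12.8 and 14.1 RPKM and then 46.8, 48.3 and 40.2, and at 14.9, 10.4 and 12.1 and then 47.0, 48.9 and 25.5 in mutant-labelled seeds. AT4G19006 stood at 4.99, 5.81 and 4.51 RPKM and then 33.4, 39.2 and 36.8, and at 3.98, 4.37 and 4.28 and then 43.9, 58.5 and 23.8. These 4 groups of values rose without overlap for both genes, with changes of 1.62 ± 0.28 and 1.58 ± 0.28 for RPN9A and 2.62 ± 0.29 and 2.96 ± 0.29 for AT4G19006 (largest limma adjusted p = 0.000126).

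In further pairs RPT5B went from a mean share of 22.6% in dry to 39.1% in stratified libraries, RPN1B from 23.9% to 34.8%, PAA2 from 28.4% to 36.9%, the DSS1 gene on chromosome 5 from 15.8% to 23.0% and PAE2 from 36.8% to 42.0%. RPT4B, the major gene of its pair, fell from 76.1% to 67.1%, PAD2 from 38.1% to 31.1% and PBE2 from 31.4% to 28.7%. The largest adjusted exact permutation p among these was 0.0437, for PAA2. Shares of the PAA, PAE, PAD and PBE pairs overlapped between dry and stratified libraries. That of PAA2 was 29.2%, 27.2% and 45.0% in wild-type stratified libraries 1, 2 and 3, against 26.5% to 29.8% in dry libraries. The other 9 pairs did not pass, among them RPT6 and PBB.

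**Figure D5:**
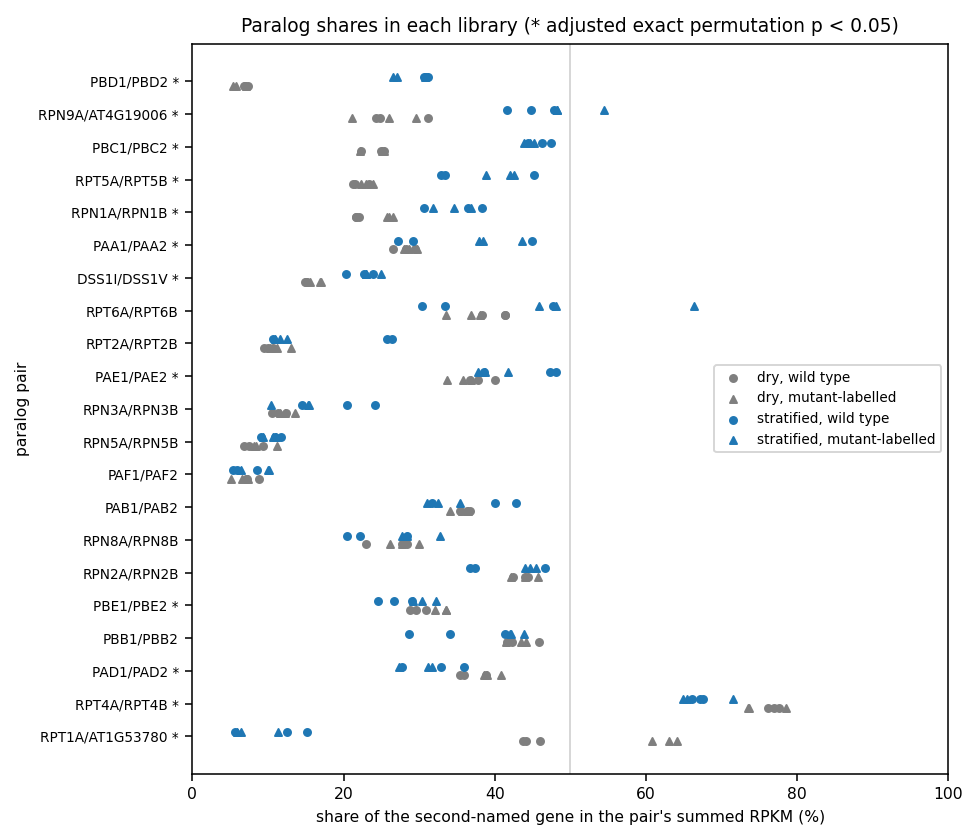
Share of the second-named gene in the summed RPKM of each of the 21 pairs, in percent, with 1 point a library, grey for dry and blue for stratified, circles for wild type and triangles for mutant-labelled. PBD2, AT4G19006 and PBC2 shift to the right. AT1G53780 shifts to the left from 43.7% or more to 15.2% or less in every library. Pairs without an asterisk overlap, and so do PAA, PAE, PAD and PBE, which have an asterisk.

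Promoters of 3 of these genes are shown, PAD1 and PBD2, which rose, and AT1G53780, which fell. They were searched for the element TGGGC, the core of a motif described in plant promoters of proteasome genes. TGGGC is also the core of another promoter motif, the site II element, so it is not particular to proteasome genes. Each is the 300 bases from 250 before to 50 after the annotated start, read 5′ to 3′ from the TAIR10.1 assembly, with TGGGC and its reverse complement in capitals. The windows are chr3:19030676-19030975 on the plus strand for PAD1, chr4:8499943-8500242 on the plus strand for PBD2 and chr1:20078973-20079272 on the minus strand for AT1G53780.
PAD1: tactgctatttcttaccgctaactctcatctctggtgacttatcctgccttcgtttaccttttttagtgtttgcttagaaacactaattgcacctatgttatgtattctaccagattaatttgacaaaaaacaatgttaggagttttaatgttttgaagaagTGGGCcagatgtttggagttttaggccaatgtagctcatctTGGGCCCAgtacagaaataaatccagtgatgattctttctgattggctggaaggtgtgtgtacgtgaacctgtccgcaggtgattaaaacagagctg
PBD2: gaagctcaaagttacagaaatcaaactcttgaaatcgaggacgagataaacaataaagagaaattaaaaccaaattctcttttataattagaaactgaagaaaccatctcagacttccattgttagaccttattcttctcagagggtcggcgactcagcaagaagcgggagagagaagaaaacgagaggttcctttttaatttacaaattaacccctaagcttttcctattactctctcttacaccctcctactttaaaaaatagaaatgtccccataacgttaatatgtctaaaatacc
AT1G53780: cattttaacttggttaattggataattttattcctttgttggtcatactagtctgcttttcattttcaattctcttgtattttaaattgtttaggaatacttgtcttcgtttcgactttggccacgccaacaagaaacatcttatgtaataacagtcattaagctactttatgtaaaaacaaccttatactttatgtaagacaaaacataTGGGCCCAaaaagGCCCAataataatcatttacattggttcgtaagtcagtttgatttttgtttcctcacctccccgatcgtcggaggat
PAD1 and AT1G53780 each held 3 matches, of which 2 overlap in a palindrome, and PBD2 held 0.

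Over all 57 members TGGGC was found on either strand in 33 windows, 57.9%, among them 16 of the 24 core genes and 12 of the 23 of the 19S particle. It was found in 26.0% of all 27443 promoters of that length and in 33.0% of the 14723 of genes that passed the filter on low values. The median change of tested members with the element was 1.45 and of those without it 1.37 in wild-type seeds, and 1.68 and 1.49 in mutant-labelled seeds. The telo-box AAACCCTA was found in 3 members, all of the 19S particle, and in 6.22% of all promoters. The G-box CACGTG was found in 0 members and in 7.68% of all promoters. A match is a description of the letters in these windows.

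The 3 tested assembly genes among the members rose in both genotypes. AT3G18940, annotated as proteasome assembly chaperone 2, stood at 2.63, 3.13 and 3.38 RPKM dry and 18.5, 28.7 and 19.9 stratified in the wild type, and at 2.78, 1.87 and 2.69 and then 22.0, 22.1 and 11.75 in mutant-labelled seeds. AT1G48170, an assembly chaperone, changed by 1.72 ± 0.27 and 1.37 ± 0.27, AT5G14710, a chaperone-like protein, by 1.91 ± 0.29 and 1.04 ± 0.29, and AT3G18940 by 2.51 ± 0.28 and 2.47 ± 0.28 (largest limma adjusted p = 0.00577). AT1G67250, outside the members and annotated as the maturation factor UMP1, which in yeast helps to form the core, stood at 8.66, 10.2 and 6.96 RPKM and then 82.6, 98.1 and 97.9 in the wild type. In mutant-labelled seeds AT1G67250 stood at 7.78, 6.65 and 11.2 and then 86.5, 89.2 and 53.0 RPKM. It did not overlap and changed by 3.30 ± 0.28 and 3.01 ± 0.28 (limma adjusted p = 3.05e-08 and 1.82e-07), more than the median core gene. AT5G38650, a second gene annotated as UMP1, stood at 12.8, 13.7 and 12.98 RPKM and then 7.99, 9.71 and 23.5, and at 15.8, 11.1 and 14.1 and then 18.7, 22.0 and 9.54, with overlap in both genotypes. Its changes were -0.09 ± 0.35 and 0.21 ± 0.35 (limma adjusted p = 0.83 and 0.616), it overlaps a neighbour on the same strand over 1855 bases, and its sign differed between alternatives.

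AT3G53970 is annotated as a probable proteasome inhibitor, and the list of activators and regulators used here names it PTRE1. Whether its protein inhibits the proteasome in these seeds was not tested. AT3G53970 stood at 104, 103 and 106 RPKM in wild-type dry libraries and 35.7, 35.8 and 68.1 in stratified ones. It fell by 1.21 on the log2 scale, with an SE of 0.33 (limma adjusted p = 0.00376), and did not overlap. In mutant-labelled seeds AT3G53970 stood at 91.1, 65.6 and 97.1 and then 64.4, 71.0 and 33.6 RPKM, with overlap, at -0.63 ± 0.33 (limma adjusted p = 0.114). That fall passed under median centring, TMM-style scaling and quantile normalization, at -1.10, -1.21 and -1.19, and without the libraries over 10% ribosomal RNA, at -0.40. The next lowest member, AT4G27680, annotated as RPT6-like, stood at 38.8, 39.0 and 38.6 RPKM and then 22.2, 30.6 and 32.7 in the wild type and at 39.1, 28.3 and 40.1 and then 36.2, 49.8 and 18.9 in mutant-labelled seeds. Its wild-type groups did not overlap, yet neither change passed, at -0.45 ± 0.32 and -0.12 ± 0.32 (limma adjusted p = 0.213 and 0.753), and the second turned to 0.26 without mutant-labelled stratified library 3. Under TMM-style scaling the wild-type change was -1.24 and passed. The similarly annotated AT5G53540 rose by 1.27 ± 0.28 and 0.98 ± 0.28 (limma adjusted p = 0.000639 and 0.00608). AT1G48530, inhibitor-like, and AT5G57950, a putative regulatory subunit, did not pass in either genotype. AT4G08140 had 0 reads in every library, and AT1G62920, a gene with a UMP1 domain, had 1 to 16.

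Of 6 activators and regulators outside the members 2 were higher in wild-type and 4 in mutant-labelled seeds, and 0 were lower, where all genes gave 49.8% and 43.4% higher. The second count was 2 without mutant-labelled dry library 2 or 3 or stratified library 1 or 2. Under TMM-style scaling 3 were lower in wild-type seeds, where 39.6% of all genes were lower. NAC053, a transcription factor that in Arabidopsis activates proteasome genes when the proteasome is inhibited, stood at 1.32, 1.02 and 0.92 RPKM and then 7.58, 10.2 and 5.10 in the wild type, and at 0.92, 0.74 and 0.96 and then 4.64, 10.9 and 3.49 in mutant-labelled seeds. It rose without overlap, by 2.01 ± 0.32 and 1.85 ± 0.32 (limma adjusted p = 2.71e-05 and 0.000105). Too few dry libraries reached 1 RPKM for the filter, so NAC053 could be tested only because it was higher after stratification. It is among the genes counted as higher in both genotypes. NAC078, a factor with the same role, stood at 42.4, 40.7 and 43.1 RPKM and then 31.6, 26.7 and 23.1, and at 42.2, 35.3 and 40.8 and then 31.7, 63.6 and 17.5 in mutant-labelled seeds. Its wild-type groups did not overlap, but the changes of -0.63 ± 0.34 and -0.25 ± 0.34 did not pass (limma adjusted p = 0.115 and 0.547), and the second was 0.19 without mutant-labelled stratified library 3. Under TMM-style scaling both changes of NAC078 passed as lower, at -1.42 and -0.83, while without the libraries over 10% ribosomal RNA that of mutant-labelled seeds passed as higher, at 0.60. PA200, an alternative cap of the core, stood at 13.6, 11.69 and 12.98 RPKM and then 10.4, 12.1 and 22.3 in the wild type, and at 12.3, 10.9 and 10.14 and then 21.9, 31.2 and 13.05 in mutant-labelled seeds. It changed by 0.15 ± 0.31, which turned to -0.16 without wild-type stratified library 3 and to -0.60 under TMM-style scaling, and by 0.85 ± 0.31 (limma adjusted p = 0.692 and 0.0275). The second call was lost without the filter, under the 3 other scalings, with changes of 0.30 to 0.49, and when 1 of 4 mutant-labelled libraries, dry 2 or 3 or stratified 1 or 2, was left out.

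Of 16 genes for ubiquitin, its activating enzymes, shuttle receptors and proteasome-bound deubiquitinases, 5 were higher and 5 lower in wild-type seeds, and 4 higher and 1 lower in mutant-labelled seeds, against the 49.8% and 18.9% and the 43.4% and 15.2% of all genes. These counts were not stable: under TMM-style scaling they were 1 and 11 in wild-type and 2 and 4 in mutant-labelled seeds. Over all genes that scaling gave 38.4% higher and 39.6% lower in wild-type seeds, and 36.9% and 34.97% in mutant-labelled seeds. With 1 library left out the higher count was 2 to 7 in wild-type seeds, and in mutant-labelled seeds 1, without dry library 2 or stratified library 1 or 2 of that genotype, to 12, without its stratified library 3. The polyubiquitin gene UBQ3 stood at a mean of 1079 RPKM in wild-type dry and 107 in stratified seeds, a change of -3.51 ± 0.42 (limma adjusted p = 1.45e-06). In mutant-labelled seeds its means were 957 and 318 RPKM, a change of -1.64 ± 0.42 (limma adjusted p = 0.00313). Of 10 genes of the COP9 signalosome, a complex built like the lid of the regulatory particle, 4 were higher and 0 lower in each genotype, with medians of 0.57 and 0.63, where 49.8% and 43.4% of all genes were higher. With 1 library left out the higher count was 1, without wild-type stratified library 2, to 8, without mutant-labelled stratified library 3, in wild-type seeds, and 2 to 9 in mutant-labelled seeds. Under TMM-style scaling 1 was higher and 2 were lower in wild-type and 2 and 2 in mutant-labelled seeds. The shares of all genes under that scaling are those given above for the ubiquitin genes.

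Between genotypes no member passed. In dry seeds 0 of the 54 tested members differed (limma adjusted p under 0.05), with 0 at an unadjusted p under 0.05, where 0.0264% of all genes were higher and 0.0198% lower in mutant-labelled seeds. In stratified seeds 0 members passed and 2 had an unadjusted p under 0.05, where 0.0396% of all genes were higher and 0.172% lower. The response to stratification differed between genotypes for 0 members, with 2 at an unadjusted p under 0.05, where 0.0066% of all genes had a larger and 0.0198% a smaller change in mutant-labelled seeds. The 3 genes with these unadjusted values were RPT6B, in both contrasts and with the reservation on its reads, AT5G14710 and PAF2. A missed threshold does not show equal levels. Without the 4 libraries over 10% ribosomal RNA, which leaves mutant-labelled stratified library 2 as the lone library of its group, assumed to vary like the others, 34 members were higher in mutant-labelled stratified seeds and 29 had a larger and 1 a smaller response. Calls rose over all genes too, to 23.9% higher and 18.5% lower, and to 20.3% with a larger and 14.9% with a smaller response. Without library 3 of both stratified groups 18 were higher and 17 had a larger response, where 14.6% of all genes were higher and 20.5% lower and 13.2% had a larger and 12.6% a smaller response. Without wild-type stratified library 3 alone 1 member was higher, 1 lower and 2 had a larger response. Over all genes 5.48% were then higher and 24.3% lower, and 3.86% had a larger and 11.6% a smaller response. The calls between genotypes in stratified seeds thus differed with the libraries kept.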

How the data were processed

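RNA was sequenced from 12 libraries, 3 in each of 4 groups. Per the labels' protocols, RNA was extracted with Trizol, messenger RNA was taken with oligo-dT and a directional kit was used. STAR, DESeq2 and the TAIR10 build appear, without versions, in the submitters' processing notes, and the sources used here name neither the counting program nor its handling of strand and multiple matches. The deposited table gives RPKM per locus, computed by the authors. Of 74966 values under 2 RPKM, 99.3% came out as whole reads within 0.05 reads, which gave the depth of 17752900 to 22987700 reads. The 3-read floor covers counting error only. No pair of replicates agreed within sampling noise (chi-square per degree of freedom 3.19 to 480.8).

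Loci at 1 RPKM or more in at least 3 libraries, 15145 of 32833, were tested on log2(RPKM + 1) with limma 3.58.1 (R 4.3.3), with 4 group means, a trended prior and Benjamini-Hochberg adjustment over all of them, at a threshold of 0.05. The fold changes are on that scale and understate the change of low genes. The steps were tested on simulated data. Paralog ratios were tested by exact permutation, two-sided, with labels of dry and stratified libraries exchanged within genotypes. Other steps used Python 3.11.15 with numpy 2.4.6, pandas 2.3.3, matplotlib 3.10.9 and Biopython 1.88. Promoters and coding sequences came from the RefSeq annotation of TAIR10.1, which matched 32548 loci.

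The members and lists were chosen with earlier results of these data known. For genes and pairs picked by the size of their change, lack of overlap and p-values in the same libraries follow partly from the choice. Values in every library are given for catalytic beta subunits, named single-copy subunits, the 3 members with the highest and lowest wild-type change, the 4 pairs with the largest shift of share and the named regulators; AT3G18940 and UBQ3 were added after their values were seen. The alternatives were another pseudocount, no filter, other scalings, ribosomal RNA removed or as a covariate, a replicate block and libraries left out.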

Additional observations from a re-analysis of the deposited data

How the results depend on the processing

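The counts of members called were 44 higher and 2 lower in wild-type and 49 and 1 in mutant-labelled seeds. The lower counts became 4 and 3 under median centring, 5 and 4 under TMM-style scaling, 3 in mutant-labelled seeds under quantile normalization and 2 there without the libraries over 10% ribosomal RNA. Leaving out 1 library at a time gave 42 to 48 higher and 2 lower in wild-type seeds, and 45 to 49 and 1 in mutant-labelled seeds. Over all genes 43.9% to 53.4% were then higher and 15.7% to 21.8% lower in wild-type seeds. In mutant-labelled seeds these shares were 34.8% to 54.2% and 11.6% to 20.6%. These runs gave 0 in dry seeds between genotypes, and 0 to 1 higher and 0 to 1 lower in stratified seeds. They gave 0 to 2 larger and 0 smaller responses, and 9 to 15 paralog ratios. Over all genes up to 5.48% were higher and up to 24.3% lower in stratified seeds. Up to 3.86% of all genes had a larger and up to 11.6% a smaller response. Between genotypes in stratified seeds 34 were higher without the libraries over 10% ribosomal RNA and 18 without library 3 of both stratified groups, an alternative chosen after seeing the data. The response then differed for 29 and 17 with a larger and, in the first, 1 with a smaller change. Over all genes 23.9% and 14.6% were then higher and 18.5% and 20.5% lower. The cause was not tested.

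The log2 change of the core to 19S ratio was 0.85 in wild-type and 0.73 in mutant-labelled seeds, and 0.83 to 0.87 and 0.68 to 0.76 with 1 library left out. It was 1.17 by medians in wild-type seeds, 0.68 and 0.42 without AT1G53780, 0.63 in mutant-labelled seeds with the full 19S list and 0.79 and 0.45 with that list without AT1G53780. The sums over the full list and without AT1G53780 were chosen after seeing the data.

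Deviations of same-numbered replicates from their group means had correlations from -0.315 to 0.197. With 3 libraries a group these values cannot show whether same-numbered libraries shared a seed lot or batch. With a replicate block the members called were 44 higher and 2 lower in wild-type and 47 and 1 in mutant-labelled seeds, and 0 in the other contrasts. Over all genes 49.9% were then higher and 18.65% lower in wild-type seeds, and 43.98% and 15.13% in mutant-labelled seeds. Between genotypes in stratified seeds 0.152% of all genes were higher and 1.855% lower. In the block, paralog ratios have 64 assignments, whose smallest p is 0.0312, and 0 of 21 passed after adjustment. Without the libraries over 10% ribosomal RNA there are 30 assignments, and 0 passed.

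Among named genes in wild-type seeds the sign turned under median centring, TMM-style scaling and quantile normalization for RPN10 (-0.41, -0.64, -0.57), RPT3 (-0.15, -0.39, -0.28), RPT1A (-0.0058, -0.24, -0.22) and PA200 (-0.43, -0.60, -0.32), and for PBD1 under TMM-style scaling (-0.016). With 1 library left out RPN10 was -0.063 to 0.33, PA200 -0.16 to 0.35 and AT5G38650 -0.53 to 0.19. The first 2 gave -0.063 and -0.16 wherever wild-type stratified library 3 was left out, and AT5G38650 was 0.067 without library 2. In mutant-labelled seeds AT4G27680 was 0.043 with ribosomal RNA left out, 0.16 with its share as a covariate, 0.32 without the libraries over 10% and -0.42 to 0.26 with 1 library left out. NAC078 was 0.16, 0.60 and -0.71 to 0.19 under the last 3 of these, and both gave 0.26 and 0.19 without stratified library 3. AT5G38650 was -0.26, -0.35 and -0.16 under the scalings and -0.012 to 0.55 with 1 library left out. At this depth RPN12B, AT1G62920 and AT4G08140 were too low to test.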
